A study of Mus musculus with 10 samples.

Results

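Slc28a3 and Rasa4 were followed as a pair of early risers in mouse embryonic stem cells that lost SOX2, 2 genes among 40779 transcribed units (TUs), of which 16137 carried a gene symbol. A TU is a stretch of continuous nascent transcription on 1 strand, so that for a gene its introns and exons are read together. Both genes were selected on measured values, as they stood among the earliest increases after SOX2 loss, and their own changes are therefore given as a description without a test. All 54 other TUs on either strand within 200 kb of them were chosen by position alone, and the 36 of them with enough fragments were tested.

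Slc28a3 encodes a concentrative nucleoside transporter, a membrane protein that uses ion gradients to carry purine and pyrimidine nucleosides into the cell. Nucleosides taken up in this way enter the salvage pathway, in which kinases turn them into nucleotides and phosphorylases break them down. Rasa4 encodes a GTPase-activating protein that switches Ras off by speeding up its hydrolysis of GTP and that is recruited to the plasma membrane by calcium. Ras, in turn, passes signals from growth factor receptors to the ERK kinases, and in mouse embryonic stem cells FGF signals through this route favour differentiation.

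The cells were of the E14 line, which the study's methods name IB10 for the SOX2 fusion. They carried SOX2 fused to FKBP, a degron that directs the protein to degradation when the small molecule dTAG-13 is added. Cells given DMSO formed the control group (NT, not treated), and the others received 500 nM dTAG-13 and were collected at 0.5, 1, 2 and 6 hours post depletion (hpd), with 2 libraries in each of the 5 groups. The controls carried the degron as well, the line was 1 or more homozygous clones picked for their response to dTAG-13, and every group grew in serum-free medium with LIF, the MEK inhibitor PD0325901 and the GSK3 inhibitor CHIR99021, so that the kinase below RAF was inhibited throughout. Untagged cells given dTAG-13 were not analysed here. Nascent RNA was labelled with 2 mM 4-thiouridine, itself a nucleoside, for 10 min; how much of it entered the cells was not measured here. Nothing in the labels says that the 2 libraries of a group came from separate cultures, so p-values measure only the spread between these libraries.

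Libraries held 11131490 to 25854106 fragments. All 10 markers of embryonic stem cells were tested and summed to 3640 and 3970 CPM, the count of fragments scaled to the size of the library, in NT and to 2930 and 3080 CPM at 6 hpd, without overlap. The fibroblast markers summed to at most 42.6 CPM, those of primitive endoderm to 4.29 and 4.91 CPM in NT and 7.02 and 7.63 CPM at 6 hpd, also without overlap, those of trophoblast to at most 14.2 CPM and the 1 marker of 2-cell-like cells that could be matched to at most 1.45 CPM. The nascent RNA of Sox2 itself lay at a mean of 242 to 280 CPM in the 5 groups; the degron acts on the protein, so that this level does not check the labels. In bulk RNA, fewer cells that transcribe a gene and less RNA per cell cannot be told apart.

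The start regions of both genes are shown because the earliest changes were read from nascent RNA that begins there. They are RefSeq sequences of GRCm38.p6, the assembly of mm10, each 300 bases long, from 250 bases before the annotated start of the gene to 50 bases from it, written along the strand of the gene. The Slc28a3 region is chr13:58610828-58611127 on the minus strand and the Rasa4 region is chr5:136083666-136083965 on the plus strand. Capitals mark the GC box GGGCGG, the core of the motif bound by SP factors, on either strand.
Slc28a3: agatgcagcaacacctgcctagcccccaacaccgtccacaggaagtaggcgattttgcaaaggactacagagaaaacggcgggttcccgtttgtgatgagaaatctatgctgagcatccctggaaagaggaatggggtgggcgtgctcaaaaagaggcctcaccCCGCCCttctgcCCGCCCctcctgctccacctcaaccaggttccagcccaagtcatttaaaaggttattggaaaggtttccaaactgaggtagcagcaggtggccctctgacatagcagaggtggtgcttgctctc
Rasa4: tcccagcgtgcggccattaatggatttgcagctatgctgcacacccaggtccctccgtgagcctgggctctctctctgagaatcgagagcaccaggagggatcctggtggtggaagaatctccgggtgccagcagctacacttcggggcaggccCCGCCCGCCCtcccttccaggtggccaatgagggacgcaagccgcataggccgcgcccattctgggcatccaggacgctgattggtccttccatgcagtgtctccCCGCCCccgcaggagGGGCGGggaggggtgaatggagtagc

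The Slc28a3 region held 2 GC boxes, both on the opposite strand and 86 and 74 bases before the start, and the Rasa4 region held 4, of which 2 shared bases with each other. A GC box was present in 35.7% of 32851 promoters of the same length, so that its presence is common. GC content was 54.7% for Slc28a3 and 64.7% for Rasa4, against a median of 52.7% for all promoters, and CpG dinucleotides numbered 8 and 16, against a median of 7. On either strand, neither window held the letters CATTGT (SOX), ATGCAAAT (octamer), AAGGTCA (ESRRB half-site), CTTTGAT (TCF), TTCNNNGAA (STAT), TGANTCA (AP-1), TGACGTCA (CRE), CACGTG (E-box) or, for the TATA box, TATAAA, which were present in 12.6%, 1.74%, 4.72%, 3.73%, 8.30%, 7.81%, 1.79%, 7.15% and 13.6% of promoters, respectively. No match says only that these letters are not in these windows.

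Slc28a3 showed a lasting rise. Its TU ran over 68.7 kb of chromosome 13, from 58542207 to 58610866 on the minus strand of mm10. It began 11 bases inside the annotated start of NM_022317.3, a transcript of 18 exons that make up 7.93% of its length, and went on for 11.1 kb past the annotated end. Introns and the stretch beyond the gene thus make up most of the length counted, and fragments in exons and introns were not counted apart.

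In the NT libraries Slc28a3 lay at 12.5 and 13.4 CPM, from 185 fragments in each. At 0.5 hpd it had reached 26.9 and 31.3 CPM, and at 1 hpd 38.4 and 39.2 CPM. It stood at 39.8 and 34.8 CPM at 2 hpd and at 36.0 and 38.8 CPM at 6 hpd. Both 0.5 hpd libraries were above both NT libraries and below all 6 later ones, while the libraries at 1, 2 and 6 hpd overlapped and have no order.

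The mean level was 2.25 times that of NT at 0.5 hpd, 3.00 times at 1 hpd, 2.88 times at 2 hpd and 2.89 times at 6 hpd. On the log2 scale the fitted changes against NT were 1.16 ± 0.13 (SE, n = 2 libraries a group), 1.58 ± 0.13, 1.53 ± 0.13 and 1.53 ± 0.13. Between 1 and 6 hpd the fitted difference was -0.05 ± 0.12. The gain was thus nearly complete within the first hour and was kept.

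Rasa4 showed a brief rise. Its TU covered 32.7 kb of chromosome 5, from 136083951 to 136116679 on the plus strand. It began 7 bases before the annotated start of XM_006504443.3, whose 21 exons make up 10.4% of the transcript, and extended 4.82 kb past its annotated end.

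Rasa4 lay at 42.7 and 37.3 CPM in the NT libraries, from 635 and 513 fragments. It rose to 69.4 and 77.0 CPM at 0.5 hpd and to 92.9 and 91.6 CPM at 1 hpd. By 2 hpd it was back at 72.4 and 72.5 CPM, and at 6 hpd at 46.4 and 44.7 CPM. The 1 hpd libraries were the highest of all 10, those at 0.5 and 2 hpd overlapped, and those at 6 hpd remained just above the NT range.

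Mean levels of Rasa4 were 1.83, 2.31, 1.81 and 1.14 times that of NT at 0.5, 1, 2 and 6 hpd. The fitted log2 changes against NT were 0.87 ± 0.11, 1.20 ± 0.11, 0.86 ± 0.11 and 0.18 ± 0.11 (SE, n = 2), and the fitted difference between 6 and 1 hpd was -1.02 ± 0.10. Its level had thus nearly returned to that of NT within 6 h, in contrast to that of Slc28a3.

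**Figure D1:**
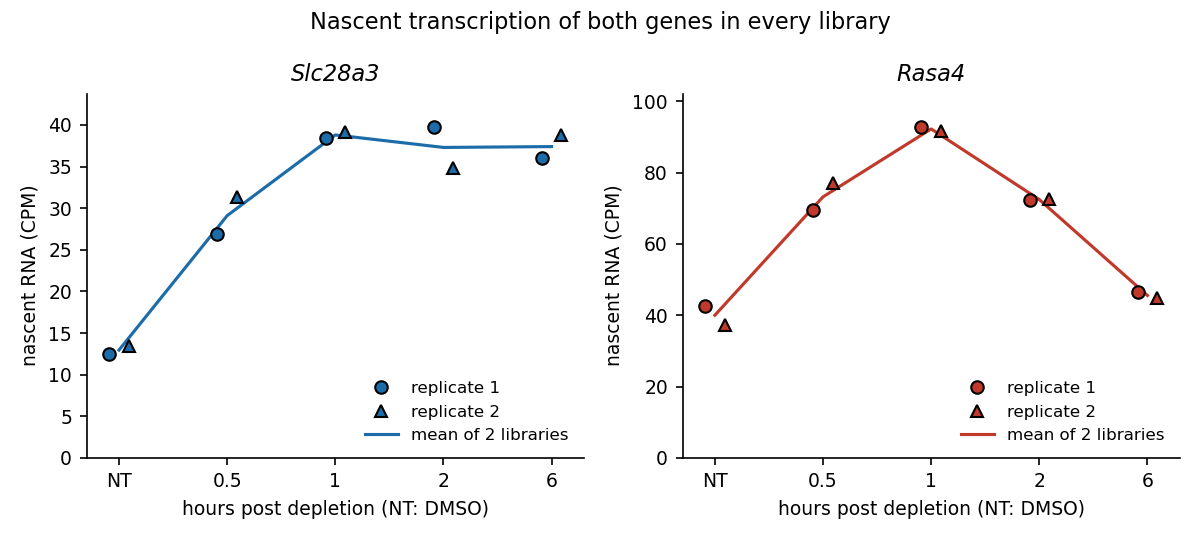
CPM of Slc28a3 (left) and Rasa4 (right) in each of the 10 libraries, with circles for replicate 1, triangles for replicate 2 and a line through the mean of each group; time points are evenly spaced. Slc28a3 stays between 34.8 and 39.8 CPM from 1 hpd on, whereas Rasa4 peaks at 92.9 CPM at 1 hpd and is at 44.7 and 46.4 CPM at 6 hpd.

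Per kb of TU, Rasa4 was the more transcribed of the pair in every library. In NT, its level was 1.22 ± 0.12 CPM per kb (SD, n = 2) and that of Slc28a3 0.189 ± 0.010 CPM per kb. At 1 hpd the values were 2.82 ± 0.027 and 0.565 ± 0.0087 CPM per kb. The ratio of Slc28a3 to Rasa4 per kb was 0.139 and 0.172 in NT, 0.197 and 0.204 at 1 hpd and 0.371 and 0.414 at 6 hpd. This ratio is formed within a library, and it was higher both while the 2 genes increased together and when Rasa4 alone came down.

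The background over all tested TUs grew with time. At an adjusted p under 0.05 in the genome-wide fit (edgeR, quasi-likelihood test), the share of the 28459 TUs called up was 0.527%, 2.15%, 4.26% and 6.61% at 0.5, 1, 2 and 6 hpd, and the share called down 0.787%, 3.61%, 5.57% and 9.2%. Between 6 and 1 hpd 1.96% were called up and 2.92% down. As both genes were selected on these contrasts, nothing is read from these shares about the pair, and they serve as the background for the neighbours and pathway members that follow.

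The neighbours of both genes were counted next. Of the 23 TUs within 200 kb of Slc28a3, 11 had enough fragments to be tested, and of the 31 around Rasa4, 25. Of these 36 TUs, 1 was called up at 0.5 hpd and 1 at 1 hpd, none was called at 2 hpd, and 1 was called up and 3 down at 6 hpd. With the replicate number as a block in the fit, 2 were called at 1 hpd and 6 at 2 hpd, so that the count at 2 hpd depends on the model. Without that block, at 0.5 and 1 hpd none was called down by edgeR or DESeq2, with 1 and 5 at an unadjusted p under 0.05. At 2 hpd, 9 of the 36 had an unadjusted p under 0.05 in edgeR, and DESeq2 called 0. Over all tested TUs the share with an unadjusted p under 0.05, in either direction, was 9.61%, 18.0% and 24.7% at 0.5, 1 and 2 hpd, so that the 9 of 36 lie near the background. The counts at 6 hpd lie near the shares over all tested TUs, and 1 TU of 36 at the earlier times is the smallest count above 0, so that nothing about the neighbours as a group is read from them. The median log2 change of the 36 at these times was -0.03, -0.10, -0.16 and -0.18, against -0.02, -0.04, -0.04 and -0.04 over all tested TUs.

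**Figure D2:**
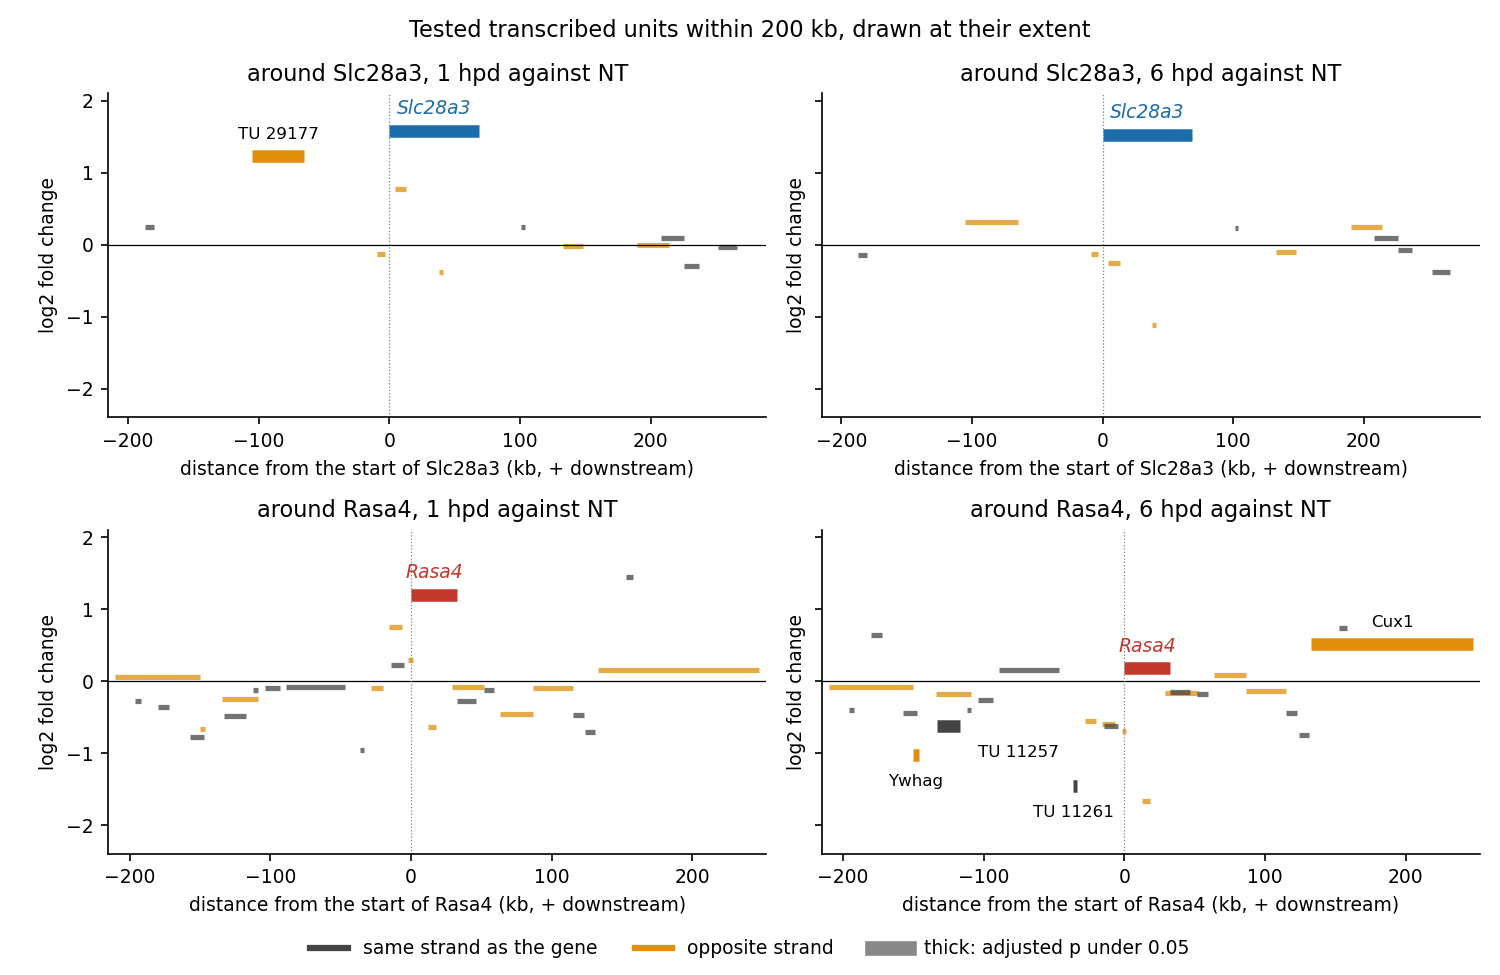
Fitted log2 fold change against NT of Slc28a3 (top) and Rasa4 (bottom) and of the tested TUs around them at 1 hpd (left) and 6 hpd (right), each bar spanning a TU's extent in kb from the start of the gene, with positive distances downstream; very short TUs are widened and long ones end at the edge. Grey bars are on the strand of the gene, orange bars on the opposite strand, and thick named bars had an adjusted p under 0.05; TU 29177 stands with Slc28a3 at 1 hpd and not at 6 hpd.

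The single neighbour of Slc28a3 that was called lay upstream on the opposite strand. TU 29177 extended over 39.5 kb (chromosome 13, 58675931 to 58715440, plus strand) and began 65.1 kb before the start of Slc28a3, transcribed away from it. It was deposited as antisense to a gene body, and RefSeq places the non-coding RNA gene Gm34058 within it.

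TU 29177 held 2.42 and 2.33 CPM in the NT libraries, 4.64 and 6.33 CPM at 0.5 hpd and 6.27 and 4.90 CPM at 1 hpd. It held 3.64 and 2.69 CPM at 2 hpd and 2.74 and 3.14 CPM at 6 hpd. All 4 libraries of the first hour were above the other 6. Its log2 change was 1.17 ± 0.25 at 0.5 hpd (edgeR adjusted p = 0.033) and 1.23 ± 0.25 at 1 hpd (edgeR adjusted p = 0.0081). At 2 hpd it was 0.42 ± 0.27 (edgeR adjusted p = 0.36) and at 6 hpd 0.31 ± 0.27 (edgeR adjusted p = 0.47), and the difference between 6 and 1 hpd was -0.91 ± 0.24 (edgeR adjusted p = 0.041).

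TU 29177 therefore rose alongside Slc28a3 and came down while the gene stayed up; over the 10 libraries its log2 CPM correlated with that of Slc28a3 at r = 0.52, as a description over libraries that share the time course. These calls rest on 32 to 119 fragments a library. The call at 1 hpd was lost without 1 hpd replicate 1 (1.04, edgeR adjusted p = 0.11) and without NT replicate 2 (1.22, edgeR adjusted p = 0.076). The call at 0.5 hpd was lost without 0.5 hpd replicate 2 (0.98, edgeR adjusted p = 0.20), NT replicate 1 (1.20, edgeR adjusted p = 0.15) or NT replicate 2 (1.15, edgeR adjusted p = 0.22), and that of 6 against 1 hpd without any 1 of the 4 libraries compared (edgeR adjusted p from 0.089 to 0.27), with total counts as the scaling (edgeR adjusted p = 0.050) and in DESeq2 (DESeq2 adjusted p = 0.078).

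The other TUs around Slc28a3 did not pass the test at any time. On the opposite strand, TU 29173 lay within intron 1 and held 0.466 to 1.71 CPM, with log2 changes from 0.84 ± 0.39 at 0.5 hpd to -0.26 ± 0.45 at 6 hpd. TU 29172 spanned exon 9 with parts of introns 8 and 9, and its log2 change at 6 hpd was -1.11 ± 0.44 (edgeR adjusted p = 0.10). TU 29174, which began 3.57 kb upstream and runs away from the gene, had a mean of 9.4 fragments a library, too few for a change of moderate size to be seen.

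No TU with a gene symbol lay upstream of Slc28a3 within 200 kb. The nearest downstream was Gm40966, at 66.0 kb, with a mean of 3.5 fragments and not tested. Beyond it came Rmi1, which acts in the resolution of recombination intermediates, at 33.1 to 43.2 CPM, and Hnrnpk, an RNA-binding protein, both on their own strands and overlapping. At 1 hpd the log2 change of Rmi1 was 0.00 ± 0.11 and that of Hnrnpk 0.09 (edgeR adjusted p = 0.69). The uncharacterised 2210016F16Rik and the kinesin Kif27 had log2 changes of -0.30 (edgeR adjusted p = 0.29) and -0.03 (edgeR adjusted p = 0.97) at that time.

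Rasa4 lies among closely spaced genes, and neither Polr2j nor Lrwd1, at its end, was called against NT at any time. Polr2j, a subunit of RNA polymerase II, began 10 bases after the end of the Rasa4 TU on the same strand, where the deposited units are separated at an annotated start. Polr2j held 31.2 and 29.2 CPM in the NT libraries, 24.1 and 26.0 CPM at 1 hpd and 27.3 and 27.0 CPM at 6 hpd. Its log2 change was -0.06 ± 0.11 at 0.5 hpd (edgeR adjusted p = 0.94) and -0.27 ± 0.11 at 1 hpd (edgeR adjusted p = 0.21), when Rasa4 was at its highest. An increase past the end of the Rasa4 TU was not detectable in the counts of Polr2j.

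Lrwd1, a factor associated with the origin recognition complex, ran into the tail of the Rasa4 TU from the opposite strand, over 3773 bases beyond the annotated end of Rasa4. It held 28.3 to 33.0 CPM in all libraries, with log2 changes between -0.08 and -0.17. Inside the gene, TU 12552 lay across the start of Rasa4 with exon 1, and TU 12553 across exons 7 to 12. These antisense units had means of 6.3 and 5.5 fragments a library, and none of their changes passed the test.

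Upstream, 2 units just before Rasa4 held more in the first hour than at 6 hpd. Upk3bl, a uroplakin-like gene on the same strand 4.64 kb away, held 0.606 and 0.872 CPM in NT, 1.33 and 1.62 CPM at 0.5 hpd and 0.351 and 0.582 CPM at 6 hpd, and did not pass the test (0.97 ± 0.38 at 0.5 hpd, edgeR adjusted p = 0.36). The non-coding Gm40347 began 6.40 kb upstream and is transcribed away from Rasa4. It held 1.75 and 1.82 CPM in NT, 2.38 and 3.59 CPM at 1 hpd and 1.40 and 0.990 CPM at 6 hpd.

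The change of Gm40347 was 0.75 ± 0.29 at 1 hpd (edgeR adjusted p = 0.18) and -0.59 ± 0.34 at 6 hpd (edgeR adjusted p = 0.26), so that neither time differed from NT by the test. Between 6 and 1 hpd, however, the difference was -1.34 ± 0.31 (edgeR adjusted p = 0.020). That call rests on 17 to 63 fragments a library and was lost without 1 hpd replicate 2 (edgeR adjusted p = 0.26), 6 hpd replicate 1 (-1.60, edgeR adjusted p = 0.057) or 6 hpd replicate 2 (-1.09, edgeR adjusted p = 0.18). Upk3bl and Gm40347 overlap on opposite strands.

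Around Rasa4 4 TUs were called at 6 hpd, when Rasa4 itself was near its NT level. The unit named Cux1, after a homeobox transcription factor gene, held 374 and 333 CPM in NT and 493 and 521 CPM at 6 hpd, a log2 change of 0.52 ± 0.12 (edgeR adjusted p = 0.0085). This unit, of 351 kb on the opposite strand, ends 100 kb downstream of the Rasa4 TU, over Sh2b2. It starts 484 kb from the start of Rasa4, so that only a part of it lies within 200 kb. The call was lost without 6 hpd replicate 2 (0.48, edgeR adjusted p = 0.066) or NT replicate 2 (0.46, edgeR adjusted p = 0.095).

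The other 3 fell. TU 11261, a unit of 0.844 kb that lies 35.7 kb upstream outside any gene, held 3.03 and 4.87 CPM in NT, 2.76 and 1.31 CPM at 1 hpd and 1.12 and 1.69 CPM at 6 hpd, a log2 change of -1.46 ± 0.36 at 6 hpd (edgeR adjusted p = 0.013). Its NT and 6 hpd libraries did not overlap, and the call was lost without 6 hpd replicate 1 (-1.20, edgeR adjusted p = 0.11) or NT replicate 2 (-1.07, edgeR adjusted p = 0.18). The unit named Ywhag, after the 14-3-3 gamma adaptor gene, held 7.81 and 6.98 CPM in NT and 3.65 and 3.61 CPM at 6 hpd (-1.03 ± 0.26, edgeR adjusted p = 0.016).

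That unit covers only 1.20% of the Ywhag gene, at its start, and most of the gene lies under the unit named Gm40346, which was not called (-0.08, edgeR adjusted p = 0.59 at 6 hpd). The Ywhag call was lost without any 1 of the 4 NT and 6 hpd libraries (edgeR adjusted p from 0.069 to 0.094). TU 11257, antisense to Ssc4d, had a log2 change of -0.62 ± 0.19 (edgeR adjusted p = 0.039), and its call was lost under 10 of 17 alternatives: in DESeq2 (DESeq2 adjusted p = 0.16), with no filter on counts (edgeR adjusted p = 0.061), in a fit of the compared libraries alone (edgeR adjusted p = 0.062) and without 0.5 hpd replicate 2 or any 1 of the NT, 1 and 6 hpd libraries (edgeR adjusted p from 0.055 to 0.26).

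**Figure D3:**
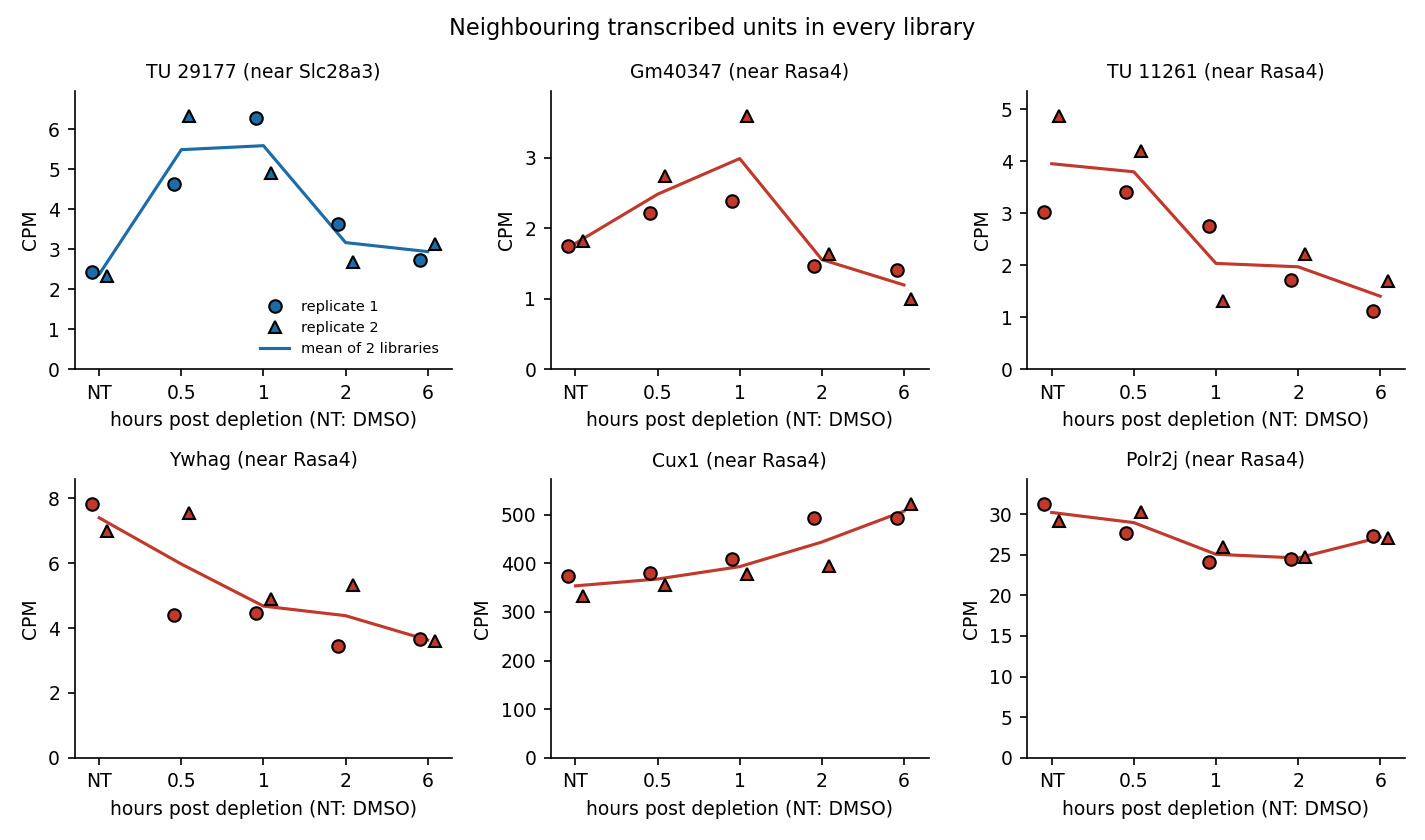
CPM of 6 TUs near Slc28a3 (blue) or Rasa4 (red) in each of the 10 libraries, with circles for replicate 1, triangles for replicate 2 and lines through the group means. TU 29177 and Gm40347 are highest in the first hour, TU 11261 and Ywhag decline to 6 hpd, Cux1 climbs to 493 and 521 CPM, and Polr2j stays between 24.1 and 31.2 CPM.

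Among genes that handle nucleosides, Slc28a1 and Upp1 were called down at all 4 times, while most others were not called. Slc28a1, the concentrative transporter that prefers pyrimidines (chromosome 7, 81113998 to 81193571), held 47.9 and 43.5 CPM in the NT libraries, 24.7 and 24.2 CPM at 0.5 hpd and 16.7 and 13.6 CPM at 1 hpd. It remained at 13.9 and 11.4 CPM at 2 hpd and 13.5 and 11.7 CPM at 6 hpd. No depleted library reached the NT range, and those at 0.5 hpd were above all later ones.

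The log2 change of Slc28a1 was -0.90 ± 0.13 at 0.5 hpd (edgeR adjusted p = 0.0031), -1.59 ± 0.14 at 1 hpd (edgeR adjusted p = 7e-06), -1.85 ± 0.14 at 2 hpd (edgeR adjusted p = 1.2e-06) and -1.86 ± 0.14 at 6 hpd (edgeR adjusted p = 6.2e-07). Between 6 and 1 hpd the difference was -0.27 ± 0.15 (edgeR adjusted p = 0.35). The time course of its decrease thus ran opposite to the increase of Slc28a3. Per kb of TU, Slc28a1 was at 0.575 CPM per kb in NT, above Slc28a3 at 0.189 CPM per kb.

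Upp1, the uridine phosphorylase that splits uridine into uracil and ribose phosphate, fell in the same way. It went from 188 and 177 CPM in NT to 112 and 91.6 CPM at 0.5 hpd, 65.6 and 57.5 CPM at 1 hpd and 57.7 and 48.3 CPM at 6 hpd. Its log2 change was -0.84 ± 0.12 at 0.5 hpd (edgeR adjusted p = 0.0027) and -1.79 ± 0.13 at 6 hpd (edgeR adjusted p = 3.6e-07). The calls of Slc28a1 and Upp1 at all 4 times were kept under each of 17 alternatives.

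Of the 8 genes listed for nucleoside transport, 6 could be matched to a TU and tested. Besides Slc28a3, edgeR called none up, with 1 at an unadjusted p under 0.05 at each of 0.5, 1 and 2 hpd and 0 at 6 hpd, while DESeq2 called 1 up, at 1 hpd. Slc28a1 was the only 1 called down before 6 hpd, when Slc29a2 was called down as well. Over all tested TUs, 0.787%, 3.61%, 5.57% and 9.2% were called down at the 4 times. Without Slc28a3, the median log2 change of the other 5 was 0.09, 0.12, -0.07 and -0.17 at the 4 times. The equilibrative transporters let nucleosides pass along their gradient. Slc29a1 had a log2 change of 0.40 ± 0.11 at 1 hpd (edgeR adjusted p = 0.053), and Slc29a2 one of -0.60 ± 0.17 at 6 hpd (edgeR adjusted p = 0.023), which was lost without NT replicate 1, 6 hpd replicate 1 or 6 hpd replicate 2 (edgeR adjusted p from 0.060 to 0.16) and in DESeq2 (DESeq2 adjusted p = 0.074).

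Of 19 salvage genes, 16 were tested. Upp1 alone was called at 0.5 and 1 hpd, 2 were called down at 2 hpd and 3 at 6 hpd, and none was called up by edgeR or DESeq2, with at most 1 at an unadjusted p under 0.05. The other 2 were Dctd, which deaminates dCMP (-0.44 at both 2 and 6 hpd, edgeR adjusted p = 0.023 and 0.017), and Uck2, a uridine and cytidine kinase (-0.41 ± 0.11 at 6 hpd, edgeR adjusted p = 0.018). The 2 hpd call of Dctd was lost in DESeq2 (DESeq2 adjusted p = 0.053), in a fit of the compared libraries alone (edgeR adjusted p = 0.071) and without 2 hpd replicate 2 or either NT library (edgeR adjusted p from 0.078 to 0.099). Its 6 hpd call was lost without any 1 of the 4 NT and 6 hpd libraries (edgeR adjusted p from 0.070 to 0.11), and that of Uck2 without NT replicate 1, 6 hpd replicate 1 or 6 hpd replicate 2 (edgeR adjusted p from 0.085 to 0.13). The median of the list was -0.03, -0.06, -0.10 and -0.07 at the 4 times. Of all tested TUs, 0.787%, 3.61%, 5.57% and 9.2% were called down at these times.

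The solute carriers as a whole, to which Slc28a3 belongs, were counted as well. Of 237 TUs with a symbol beginning in Slc, 221 were tested, and of the other 220, 5, 12, 19 and 31 were called up at the 4 times and 2, 8, 13 and 22 down, beside shares over all tested TUs of 0.527%, 2.15%, 4.26% and 6.61% up and 0.787%, 3.61%, 5.57% and 9.2% down. The median of the other 220 was 0.01 at 0.5 hpd and 0.08 at 6 hpd.

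Among the Ras GTPase-activating proteins, the namesakes of Rasa4 were not called in the first hour or later. Rasa1, Rasa2 and Rasa3 had log2 changes of 0.13 ± 0.17, 0.02 ± 0.15 and 0.04 ± 0.11 at 0.5 hpd and of 0.28 ± 0.17, 0.29 ± 0.15 and 0.31 ± 0.11 at 1 hpd. At 2 hpd the values were 0.39, 0.27 and 0.32 (edgeR adjusted p = 0.17, 0.29 and 0.088), and at 6 hpd 0.39, 0.46 and 0.23 (edgeR adjusted p = 0.13, 0.055 and 0.18). A difference between Rasa4 and these genes was not tested. Of 10 genes on the list, 8 were tested, and without Rasa4 none was called at 0.5 hpd by edgeR or DESeq2 (1 at an unadjusted p under 0.05), while edgeR called 1 at 1 hpd, 3 at 2 hpd and 2 at 6 hpd, all up. The median of the other 7 was 0.13, 0.31, 0.35 and 0.39 at the 4 times. Of all tested TUs, 0.527%, 2.15%, 4.26% and 6.61% were called up at these times.

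Nf1, the neurofibromin gene, was called up from 2 hpd on. It held 195 and 206 CPM in NT, 269 and 268 CPM at 1 hpd, 364 and 289 CPM at 2 hpd and 303 and 375 CPM at 6 hpd. Its log2 change was 0.42 ± 0.13 at 1 hpd (edgeR adjusted p = 0.082), 0.70 ± 0.13 at 2 hpd (edgeR adjusted p = 0.0028) and 0.76 ± 0.13 at 6 hpd (edgeR adjusted p = 0.0011). Dab2ip was called up at 1 hpd (0.41 ± 0.10, edgeR adjusted p = 0.027) and 2 hpd (0.35 ± 0.10, edgeR adjusted p = 0.045), and Rasal2 at 2 hpd (0.50 ± 0.15, edgeR adjusted p = 0.042) and 6 hpd (0.46 ± 0.15, edgeR adjusted p = 0.046). The calls of Nf1 were kept under each of 17 alternatives, whereas that of Dab2ip at 1 hpd was lost without either 1 hpd library or NT replicate 2 (edgeR adjusted p up to 0.23) and at 2 hpd without either NT library, among others (edgeR adjusted p up to 0.31), and those of Rasal2 at 2 and 6 hpd without either NT library, among others (edgeR adjusted p up to 0.43 and 0.21).

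Of the 14 Ras proteins and exchange factors, 9 were tested. Mras, a Ras relative that joins SHOC2 in activating RAF, was the only 1 called in the first hour and had the outline of Rasa4 at a smaller size. It held 236 and 212 CPM in NT, 336 and 360 CPM at 0.5 hpd, 359 and 347 CPM at 1 hpd, 333 and 305 CPM at 2 hpd and 267 and 255 CPM at 6 hpd. All 6 libraries from 0.5 to 2 hpd were above those of NT and 6 hpd.

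The log2 change of Mras was 0.63 ± 0.10 at 0.5 hpd (edgeR adjusted p = 0.0065), 0.65 ± 0.10 at 1 hpd (edgeR adjusted p = 0.0013), 0.51 ± 0.10 at 2 hpd (edgeR adjusted p = 0.0053) and 0.22 ± 0.10 at 6 hpd (edgeR adjusted p = 0.17). The difference between 6 and 1 hpd was -0.44 ± 0.10 (edgeR adjusted p = 0.024), a call lost without any 1 of those 4 libraries (edgeR adjusted p from 0.089 to 0.18). Without NT replicate 2 the calls at 0.5 and 2 hpd were lost (edgeR adjusted p = 0.12 and 0.080) and that at 1 hpd was kept.

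Of the tested exchange factors, which load Ras with GTP, Sos1 and Sos2 were called up at 6 hpd, whereas Rasgrp1 (-0.28, edgeR adjusted p = 0.17) and Rasgrp4 (0.09, edgeR adjusted p = 0.77) were not. Sos2 was called at 2 hpd as well (0.45 ± 0.13, edgeR adjusted p = 0.045), a call lost without 2 hpd replicate 1, NT replicate 2 or any 1 of the 1 and 6 hpd libraries (edgeR adjusted p from 0.056 to 0.40), with total counts as the scaling (edgeR adjusted p = 0.10) and in a fit of the compared libraries alone (edgeR adjusted p = 0.077). Sos2 held 33.7 and 26.7 CPM in NT and 52.3 and 57.5 CPM at 6 hpd (0.86 ± 0.13, edgeR adjusted p = 0.00045), and its change at 6 hpd exceeded that at 1 hpd by 0.66 ± 0.13 (edgeR adjusted p = 0.0088). The latter call was lost without either 1 hpd library or 6 hpd replicate 2 (edgeR adjusted p up to 0.095). Sos1 had a log2 change of 0.51 ± 0.14 at 6 hpd (edgeR adjusted p = 0.024), a call lost without NT replicate 2 or 6 hpd replicate 2 (edgeR adjusted p up to 0.19). The median of the 9 was 0.05, 0.13, 0.18 and 0.12 at the 4 times.

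Of 22 effectors and feedback genes of the pathway, all were tested, and edgeR called 2, 3, 5 and 5 up at 0.5, 1, 2 and 6 hpd. DESeq2 called 2, 5, 7 and 5 up, and 5, 9, 15 and 6 were up at an unadjusted p under 0.05 in edgeR. None was called down by edgeR or DESeq2, with 0 down at an unadjusted p under 0.05. Over all tested TUs, 0.527%, 2.15%, 4.26% and 6.61% were called up at these times and 0.787%, 3.61%, 5.57% and 9.2% down. A departure of the list from these shares was not tested. Each edgeR call of the first hour was lost when single libraries were left out. At 0.5 hpd this held for Spry2 (0.5 hpd replicate 2 or either NT library, edgeR adjusted p up to 0.23) and Spry4 (either 0.5 hpd library or NT replicate 1, edgeR adjusted p up to 0.28), both lost with total counts as the scaling too. At 1 hpd it held for Spry1 and Dusp5 (any 1 of the NT and 1 hpd libraries, edgeR adjusted p up to 0.16 and 0.30) and for Spred2 (either 1 hpd library or NT replicate 2, edgeR adjusted p up to 0.19), and that of Dusp5 was lost in DESeq2 as well (DESeq2 adjusted p = 0.069). The median was 0.11, 0.26, 0.28 and 0.19. Of the Sprouty and Spred genes, feedback inhibitors of the pathway, Spry1, Spry2, Spred2 and Spred3 were called up at 6 hpd, whereas Spred1 (0.41, edgeR adjusted p = 0.063) and Spry4 (-0.32, edgeR adjusted p = 0.55) were not. The other gene called up at 6 hpd was Shoc2, the partner of MRAS in RAF activation (0.55 ± 0.14, edgeR adjusted p = 0.014), a call lost without NT replicate 2 or either 6 hpd library (edgeR adjusted p from 0.053 to 0.12). Spred2 went from 288 and 269 CPM in NT to 482 and 500 CPM at 6 hpd (0.82 ± 0.11, edgeR adjusted p = 0.00015), Spry2 from 62.2 and 71.4 to 111 and 112 CPM (0.74 ± 0.12, edgeR adjusted p = 0.00078), and Spry1 from 46.6 and 48.4 to 70.7 and 70.3 CPM (0.57 ± 0.10, edgeR adjusted p = 0.00094). Spred3 had a log2 change of 0.65 ± 0.15 at 2 hpd (edgeR adjusted p = 0.0094) and of 0.61 ± 0.15 at 6 hpd (edgeR adjusted p = 0.011). Its 2 hpd call was lost without NT replicate 2 or 2 hpd replicate 2 (edgeR adjusted p up to 0.066) and with total counts as the scaling (edgeR adjusted p = 0.057), and its 6 hpd call without NT replicate 2 or 6 hpd replicate 1 (edgeR adjusted p up to 0.064) and with that scaling (edgeR adjusted p = 0.054), whereas the calls of Spred2, Spry2 and Spry1 at 6 hpd were kept under each of 17 alternatives.

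For 2 feedback genes, singled out after their values had been seen, the level at 6 hpd was below that at 1 hpd, as for Rasa4. Spry4, an inhibitor of the pathway, held 2.09 and 4.36 CPM in NT and 7.22 and 9.07 CPM at 0.5 hpd. It held 5.64 and 7.40 CPM at 1 hpd, 6.88 and 8.36 CPM at 2 hpd and 1.97 and 3.09 CPM at 6 hpd. Unlike that of Rasa4, its mean was not highest at 1 hpd, which was not called against NT (edgeR adjusted p = 0.056). The difference of Spry4 between 6 and 1 hpd was -1.35 ± 0.30 (edgeR adjusted p = 0.016). Dusp5, a phosphatase of ERK, held 3.16 and 2.54 CPM in NT, 5.83 and 4.73 CPM at 1 hpd and 2.95 and 2.15 CPM at 6 hpd, with a difference of -1.06 ± 0.23 between 6 and 1 hpd (edgeR adjusted p = 0.015). Single libraries decide both calls, as that of Spry4 was lost without 1 hpd replicate 2 or 6 hpd replicate 1 (edgeR adjusted p = 0.17 for each) and that of Dusp5 without 1 hpd replicate 1 or 6 hpd replicate 2 (edgeR adjusted p = 0.15 and 0.16).

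**Figure D4:**
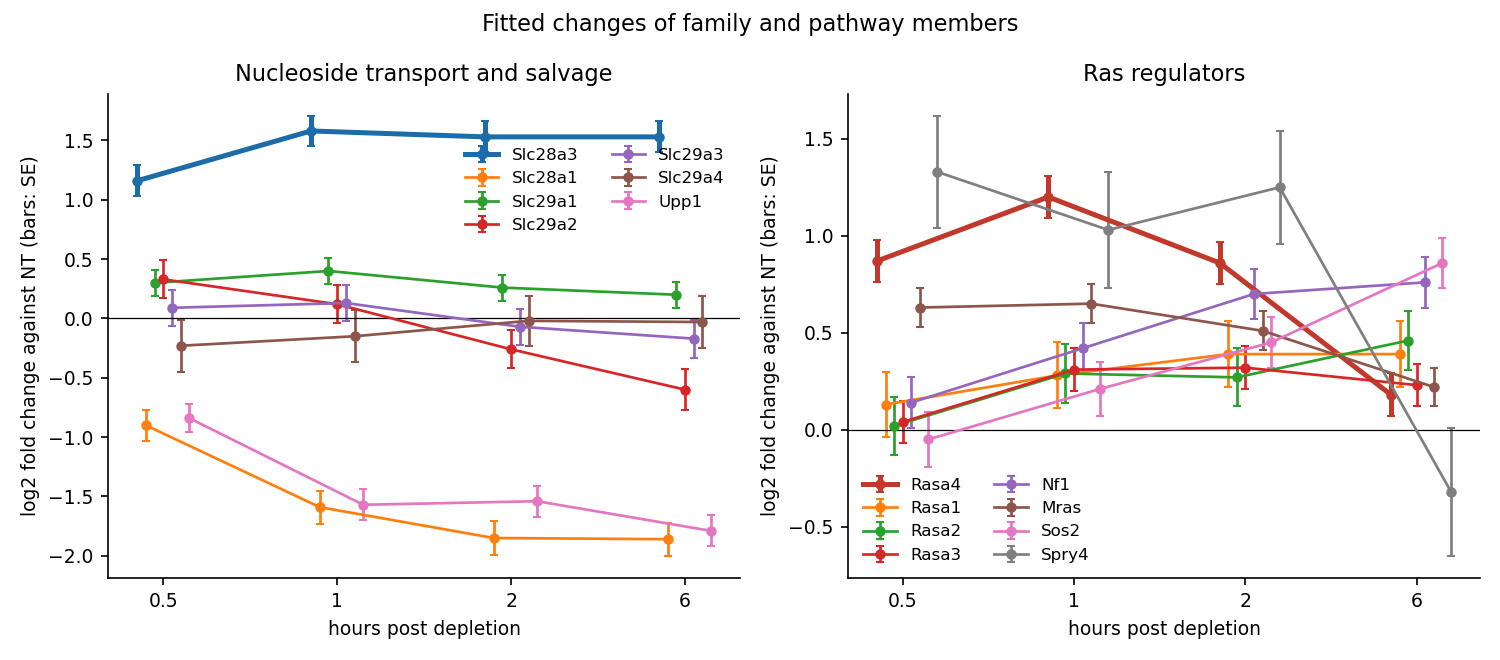
Fitted log2 fold change against NT at 0.5, 1, 2 and 6 hpd for genes of nucleoside transport and salvage (left) and of the Ras pathway (right), with bars for the SE of the fit, lines joining the time points, which are evenly spaced, and all comparisons sharing the NT libraries. Slc28a3 (thick blue) stays near 1.53 from 1 hpd while Slc28a1 and Upp1 lie below -1.5, and Rasa4 (thick red) peaks at 1.20 and ends at 0.18, with Mras below it until 2 hpd and Nf1 and Sos2 at 0.76 and 0.86 at 6 hpd.

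Genes with the most similar time courses were sought over the 10 libraries, among 11937 TUs with a symbol and a mean of at least 50 fragments, by Pearson's r of log2 CPM. Those nearest to Slc28a3 were Gm36907 (r = 0.989), Zfp931 (0.975), Gss (0.973), Whamm (0.967) and Smad6 (0.966). Their changes had the same outline at a smaller size: Smad6, an inhibitor of BMP signalling, had log2 changes of 0.56, 0.72, 0.82 and 0.70 at the 4 times, and Gss, the glutathione synthetase, 0.38, 0.46, 0.57 and 0.53. Ranking by Spearman's rho named 5 other genes, and total counts as the scaling kept 2 of the 5, Gss and Smad6. The exact list thus depends on the measure and on the scaling.

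Nearest to Rasa4 were Got1 (r = 0.985), Ass1 (0.980), Foxp4 (0.967), Ptprf (0.966) and Spsb1 (0.963). Ass1, the argininosuccinate synthase of arginine synthesis, went from 240 CPM in NT to 421 CPM at 1 hpd and 235 CPM at 6 hpd (means of 2 libraries), and Got1, a cytosolic aspartate aminotransferase, from 164 to 229 and 176 CPM. Foxp4, a forkhead transcription factor, had log2 changes of 0.61, 0.82, 0.53 and -0.08. Spearman's rho kept 1 of these 5, Ptprf, and total counts as the scaling kept 4. Slc28a3 and Rasa4 themselves correlated at r = 0.649, which put Rasa4 in place 1924 among the candidates for Slc28a3. All points share the time course, and these likenesses are descriptions.

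Some transcripts that serve as markers of other cell types rose in the first hour as well, with time courses that differed from those of the pair. Pdgfrb, listed as a fibroblast marker, had means of 10.2, 17.1, 22.5, 26.5 and 33.6 CPM in NT and at 0.5, 1, 2 and 6 hpd. Its increase went on after 1 hpd, while Slc28a3 stayed level. On that list 3 of the 6 markers could be matched, with a sum of 9.74 to 12.5 CPM in NT and 27.3 to 42.6 CPM at 6 hpd. The other matched markers, Col1a1 and Thy1, had means of at most 1.04 and 0.469 CPM. Eomes, listed for trophoblast, had means of 2.42, 6.94, 7.52, 8.40 and 3.33 CPM. This increase was brief too, but its mean was highest at 2 hpd, when Rasa4 had already come down from its level at 1 hpd. Of the 5 markers on that list, 4 were matched, and the others differed from Eomes. Krt8 had means of 6.88, 4.53, 3.03, 1.78 and 1.70 CPM, Gata3 of 2.22, 1.73, 1.17, 1.37 and 1.06 CPM, and Cdx2 of at most 0.373 CPM. The trophoblast sum was 8.88 to 14.2 CPM in NT and 6.18 to 6.76 CPM at 6 hpd. All libraries at 0.5, 1 and 2 hpd lay within the NT range, the lowest at 10.5 CPM. The part of other cell types, or of the lower sum of stem cell markers, in the results for Slc28a3 and Rasa4 was not tested.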

How the data were processed

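TT_chem-seq of 10 libraries in 5 groups was used. The authors deposited 1 table of fragment counts, raw and unscaled, with a row for each TU and its position. Per the study's methods and the submitters' processing notes, reads were aligned with BWA 0.7.17-r1188 to the mm10 assembly, kept at a mapping quality of at least 10 (SAMtools 1.10), rid of duplicates (Picard 2.12.0) and split by strand. TUs were defined from pooled data with a hidden Markov model, joined to RefSeq genes and counted, so that each TU has the same span in all groups, and reads that map equally well to several places are left out.

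Only TUs that held over 10 fragments in 2 or more libraries entered the test (28459 of 40779; the other 12320 held 0.316% of fragments). All libraries were fitted together in edgeR 4.0.16 (R 4.3.3), with 1 coefficient per group, TMM factors, the quasi-likelihood F-test and Benjamini-Hochberg adjustment over all tested TUs; calls are at an adjusted p under 0.05. The coefficient of variation between replicates was 10.0%. CPM use the TMM factors, and log2 CPM a prior count of 2. SEs were derived from each fold change and its F. The fit was tested on simulated data. Replicate pairs differed by more than counting error (chi-square per degree of freedom 2.69 to 9.03).

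The members, the gene and marker lists, the motifs and the tests were chosen with earlier results of these data known. TUs were named if they overlapped a member on the opposite strand, were the nearest with a symbol on either side, were called within 200 kb (at most 12 a gene), were among the 5 most similar by r, or were list members called at any time (at most 4 a list, by smallest p), with the other Slc28 and Rasa genes; others are named as examples. Symbols were matched to RefSeq, which gave the annotation, promoters and synonyms. Alternatives were DESeq2 1.42.0, RLE factors, total counts as the scaling, no filter on counts, a mean of 50 or more fragments, a fit of the compared libraries alone, a replicate block, windows of 100 and 500 kb, Spearman's rho and the removal of each library in turn. For list members, both filters and the fit of the compared libraries alone were added after seeing the data.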

Additional observations from a re-analysis of the deposited data

Results flagged for a closer look

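For 7 TUs the change at 6 hpd differed from the change at 1 hpd by the test of that difference (edgeR, all adjusted p under 0.05), which is why they are listed. Near the members these were TU 29177 (-0.91, edgeR adjusted p = 0.041), upstream of Slc28a3, and Gm40347 (-1.34, edgeR adjusted p = 0.020), upstream of Rasa4; both were lower at 6 hpd. Among the pathway members, Slc29a2 (-0.73, edgeR adjusted p = 0.017), Mras (-0.44, edgeR adjusted p = 0.024), Spry4 (-1.35, edgeR adjusted p = 0.016) and Dusp5 (-1.06, edgeR adjusted p = 0.015) were lower at 6 than at 1 hpd, and Sos2 was higher (0.66, edgeR adjusted p = 0.0088). These calls rest on 2 libraries a group, and each was lost when at least 1 of the 4 libraries compared was left out.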

How the results depend on the processing

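Of 140 alternative values for the log2 changes of Slc28a3 and Rasa4, 139 stayed within the spread of the libraries, and with total counts as the scaling the change of Slc28a3 at 1 hpd was 1.50. That scaling moved the median over all TUs at 2 hpd from -0.04 to -0.155. Same-numbered deviations correlated at 0.0742 to 0.291 over 10 pairs of groups, 8 of them over 0.1. A pairing of the libraries by replicate number is thus possible, but the labels do not give one. With the replicate number as a block (replicate block), 2 neighbours were called at 1 hpd and 6 at 2 hpd, in place of 1 and 0. List members called then were 17 and 25, in place of 7 and 13. Neighbours called at 0.5, 1, 2 and 6 hpd and at 6 against 1 hpd (1, 1, 0, 4 and 2) ranged over 0 to 1, 0 to 1, 0 to 2, 0 to 4 and 0 to 3 with a library left out. At 6 hpd 0 were called without NT replicate 2 and 1 without either 6 hpd library, and at 6 against 1 hpd 0 without 1 hpd replicate 2 or either 6 hpd library. A window of 500 kb gave 2, 3, 3 and 7 at the 4 times, and 100 kb gave 1 at 6 hpd. At 2 hpd, a mean of 50 or more fragments and total counts each gave 1, as did DESeq2 and that mean at 6 against 1 hpd. List members called at the 4 times (5, 7, 13 and 14) ranged over 3 to 6, 3 to 14, 7 to 21 and 8 to 17 with a library left out, the lowest without 0.5 hpd replicate 2 or either NT library, either 1 hpd library, NT replicate 2 and either 6 hpd library in turn, and DESeq2 gave 11 at 1 hpd. Of 882 alternative values for called TUs, 746 kept the call, 136 lost it and 0 changed direction. Where these counts moved, the cause was not tested. With 2 libraries a group, moderate changes of TU 12552 and TU 12553, with means under 10 fragments a library, could not be seen, and a group reduced to 1 library is assumed to vary as the others do.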
